A study of Mus musculus with 2 samples.

Results

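Protein folding genes were followed in 2 libraries of retinal microglia, the resident macrophages of the retina. The set named 42 genes of the heat shock response, the chaperone machinery and the response to stress of the endoplasmic reticulum (ER), chosen by gene symbol. The deposited table listed 41 of them among its 13549 genes, and all 41 had at least 20 reads over both libraries. Counts of *Hspb1*, the small heat shock protein of the set, were not analysed here, and only its promoter window was searched. The cells came from postnatal day 5 mice of genotype CD11c-Cre-gfp;Rosa-TDTom. In this genotype the CD11c promoter drives Cre together with GFP, and Cre permanently switches on TdTomato. Cells sorted as GFP+TdTom+ (Cd11c-active, 4041 cells) carried both reporters, and cells sorted as GFP-TdTom+ (Cd11c-lineage, 5441 cells) carried TdTomato alone. Both groups were taken from the same pool of 8 retinas, with 4 females and 4 males given in the labels, and each gave 1 library. It is not stated whether these counts by sex are of animals or of retinas. No untreated or Cre-negative group enters the comparison.

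Chaperones bind unfolded protein and help it reach its native shape. In the cytosol, heat shock factor 1 raises HSP70, HSP90 and their partners when unfolded protein builds up. In the ER, the sensors IRE1, PERK and ATF6 start the unfolded protein response, which raises ER chaperones and the genes that send misfolded protein out for degradation. Microglia of the developing retina engulf dying cells and make many secreted and lysosomal proteins, which fold in the ER. Some heat shock genes are also known to respond to tissue dissociation.

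The Cd11c-active library held 12943998 reads and the Cd11c-lineage library 13402625. *Rn18s*, the 18S ribosomal RNA, took 8.57% and 2.84% of these, and mitochondrially encoded genes 0.70% and 0.79%. Levels are CPM, reads scaled to a common library size, here after TMM scaling, and a ratio is always Cd11c-active over Cd11c-lineage on the log2 scale. The median log2 ratio of the 13037 genes with at least 20 reads was 0.01. With 1 library per group the difference has no replicate check, no test of the condition was possible, and no p-value is given. Counting intervals (95%, exact Clopper-Pearson) cover the sampling of reads only. The libraries differed by far more than that: the middle 95% of the log2 ratios ran from -2.35 to 3.34 among the 2014 genes with 400 to 799 reads, from -1.14 to 1.24 among the 1599 genes with 1600 to 3199 reads, and from -0.53 to 0.78 among the 214 genes with 12800 to 51199 reads. Each gene was therefore also set against the middle 95% of the log2 ratios of the 500 genes nearest to it in total reads, called its abundance neighbours. All 13 microglial marker genes were present, with 27930 and 24726 summed CPM. The 8 endothelial markers summed to 646 and 73.7 CPM, and 5 of them had 0 reads in Cd11c-lineage. The 5 pericyte markers were in the same direction, with 62.8 and 0 CPM. Border macrophage, monocyte and neutrophil, and retinal neuron markers summed the other way, though not each gene: 4 border macrophage markers summed to 21.2 and 128 CPM, with 3 of them at 0 reads in Cd11c-active, 4 monocyte and neutrophil markers to 2.83 and 17.0 CPM, and 10 retinal neuron and photoreceptor markers to 140 and 215 CPM. All 35 Cd11c-active reads of the monocyte list were of *Ccr2*, which had 0 in Cd11c-lineage, and *Rbpms* of the neuron list was higher in Cd11c-active with 325 and 126 reads. Of the 3 Muller glia markers measured, *Glul* had 27773 and 33293 reads, *Rlbp1* 94 and 0, and *Slc1a3* 73 and 642. The part of such admixture in the values below was not tested. In the annotation the exons of 15 members overlap those of another gene (*Ddit3*, *Dnaja1*, *Dnajb9*, *Eif2ak3*, *Hsp90b1*, *Hspa1a*, *Hspa8*, *Hspd1*, *Hspe1*, *Manf*, *Pdia3*, *Pdia4*, *Pdia6*, *Ppp1r15a* and *Tcp1*), so their reads are uncertain where counting did not use strand or shared reads.

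The folding genes were at nearly the same level in both libraries. Their summed level was 13596 CPM in Cd11c-active against 12575 CPM in Cd11c-lineage, a log2 ratio of 0.11 (counting interval 0.10 to 0.12). The members had a median log2 ratio of 0.09, with 24 higher and 17 lower in Cd11c-active, while 50.2% of all genes with at least 20 reads were higher. Over library totals, which lower every log2 ratio by 0.14, 16 members were higher and 25 lower, while 44.6% of all such genes were higher. None of the 41 members (0) was at least 2-fold higher in Cd11c-active, against 23.3% of all genes with at least 20 reads, and 2 were at least 2-fold lower, against 21.6% of all such genes. Both directions together took 44.9% of all such genes. These were *Hsf1* and *Hspe1*. The members are more abundant than most genes, so the background was also taken at like depth. Of the 35 members with at least 1000 reads, 0 were past 2-fold in either direction, against 9.57% of the 4619 genes with at least 1000 reads (5.43% higher and 4.14% lower). In that range 23 members were higher and 12 lower, while 48.6% of all genes were higher. The remaining 6 members had under 1000 reads, the fewest being 444. Of these 6, 2 were past 2-fold, both lower, while among all genes with 400 to 999 reads 36.3% were past 2-fold and 15.3% were past it in the lower direction.

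No member (0 of 41) lay outside the middle 95% of its abundance neighbours, which 3.82% of all genes with at least 20 reads and 5.39% of those with at least 1000 reads did. Between the 25th and 75th percentile of their neighbours lay 25 members, or 61.0%, against 47.8% of all genes. The lowest percentile was 9.0, for *Hsf1*, and the highest 94.8, for *P4hb*.

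**Figure D1:**
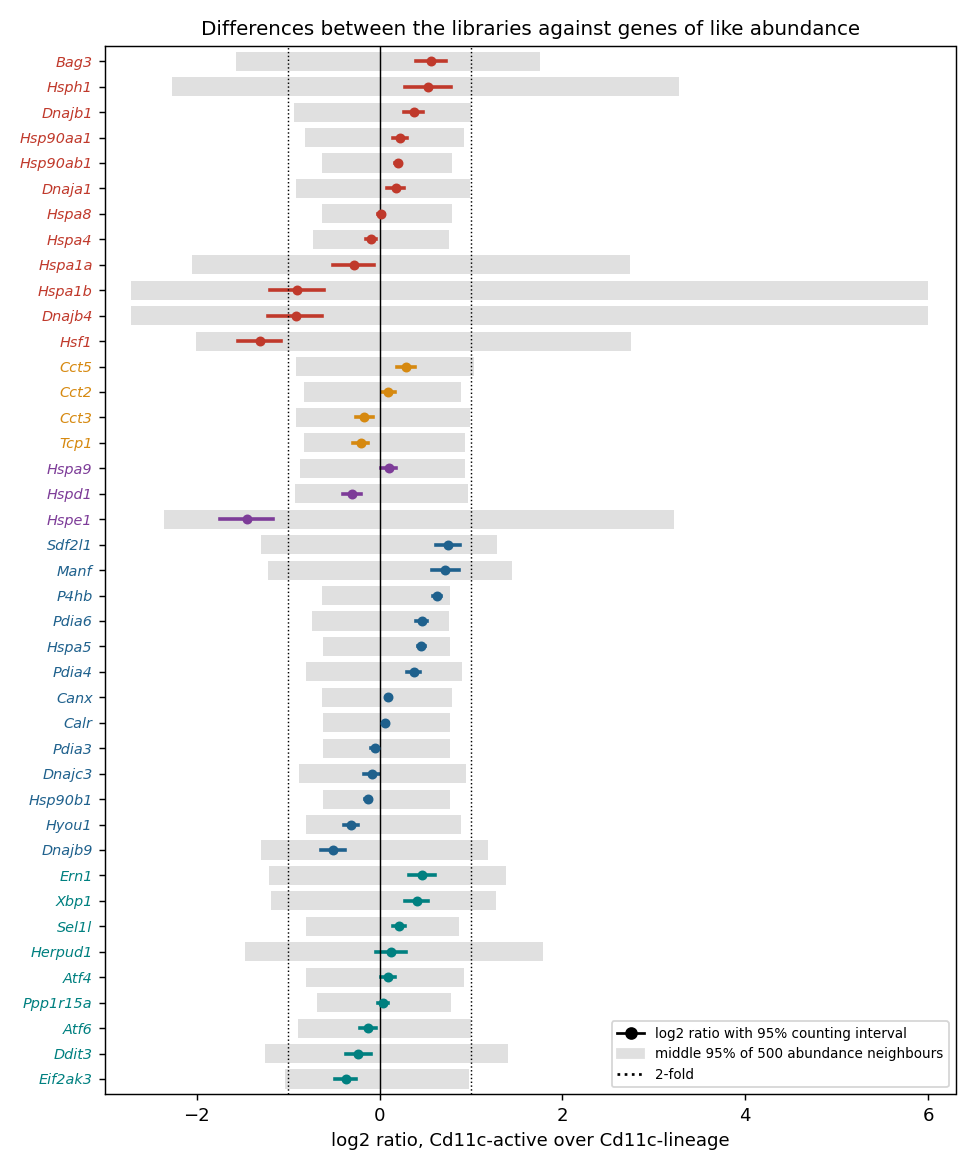
Log2 ratio of each folding gene between the libraries (point) with its 95% counting interval (coloured line), over the middle 95% of the log2 ratios of its 500 abundance neighbours (grey bar); dotted lines mark 2-fold. Label colours give the 5 classes. All 41 points lie inside their grey bars, and *Hsf1* and *Hspe1* lie beyond the lower 2-fold line.

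**Figure D2:**
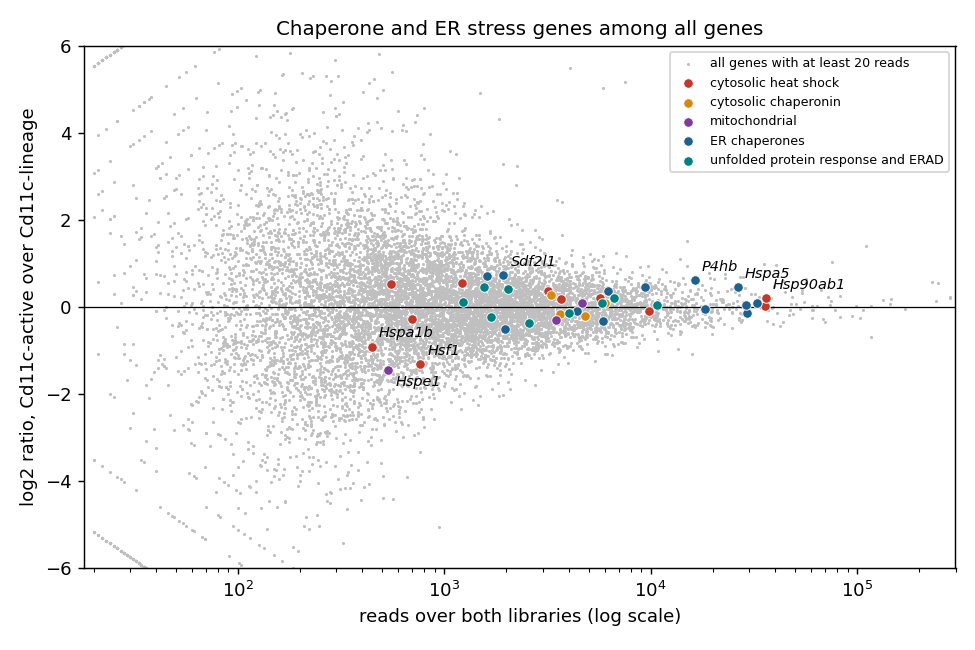
Log2 ratio (vertical axis) against reads over both libraries (horizontal axis, log scale) for the folding genes (coloured by class) and all genes with at least 20 reads (grey, cropped at log2 ratios of 6 either way). The spread of the grey points narrows with depth, and the members with at least 1000 reads lie between -0.50 and 0.74.

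Per length, the members spanned a wide range of levels, and *Hsp90ab1*, *Calr* and *Hspa8* stood highest in both libraries. Levels per kilobase used the longest annotated transcript of each gene, which is only an approximate length. *Hsp90ab1*, the constitutive cytosolic HSP90, stood first with 582 CPM per kb in Cd11c-active against 507 in Cd11c-lineage. *Calr*, the ER lectin chaperone calreticulin, followed with 516 and 496 CPM per kb, and *Hspa8*, the constitutive HSP70 called HSC70, with 433 and 428. *Hsp90b1*, the HSP90 of the ER, was the fourth in both libraries with 327 and 357 CPM per kb. At the other end *Dnajb4* had 2.32 and 4.40 CPM per kb, *Hspa1b* 4.10 and 7.67, *Hsf1* 5.17 and 12.8, *Hsph1* 5.24 and 3.63, *Hspa1a* 8.03 and 9.76, and the ER sensor gene *Ern1* 9.98 and 7.24. Other inducible heat shock genes were higher than these, with 45.6 and 35.2 CPM per kb for *Dnajb1* and 21.8 and 14.8 for *Bag3*. The order differed in part between the libraries. *Hspa5* and *Canx* stood at rank 5 and 6 in Cd11c-active with 319 and 300 CPM per kb, and at rank 7 and 5 in Cd11c-lineage with 232 and 281. *Sdf2l1* stood at rank 14 in Cd11c-active and 21 in Cd11c-lineage, *Manf* at 27 and 34, *Hspe1* at 35 and 29, and *Dnajb9* at 31 and 25. Over the 41 genes the Spearman correlation of the levels per kb between the libraries was 0.97, a description across genes, which share both libraries and their lengths.

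**Figure D3:**
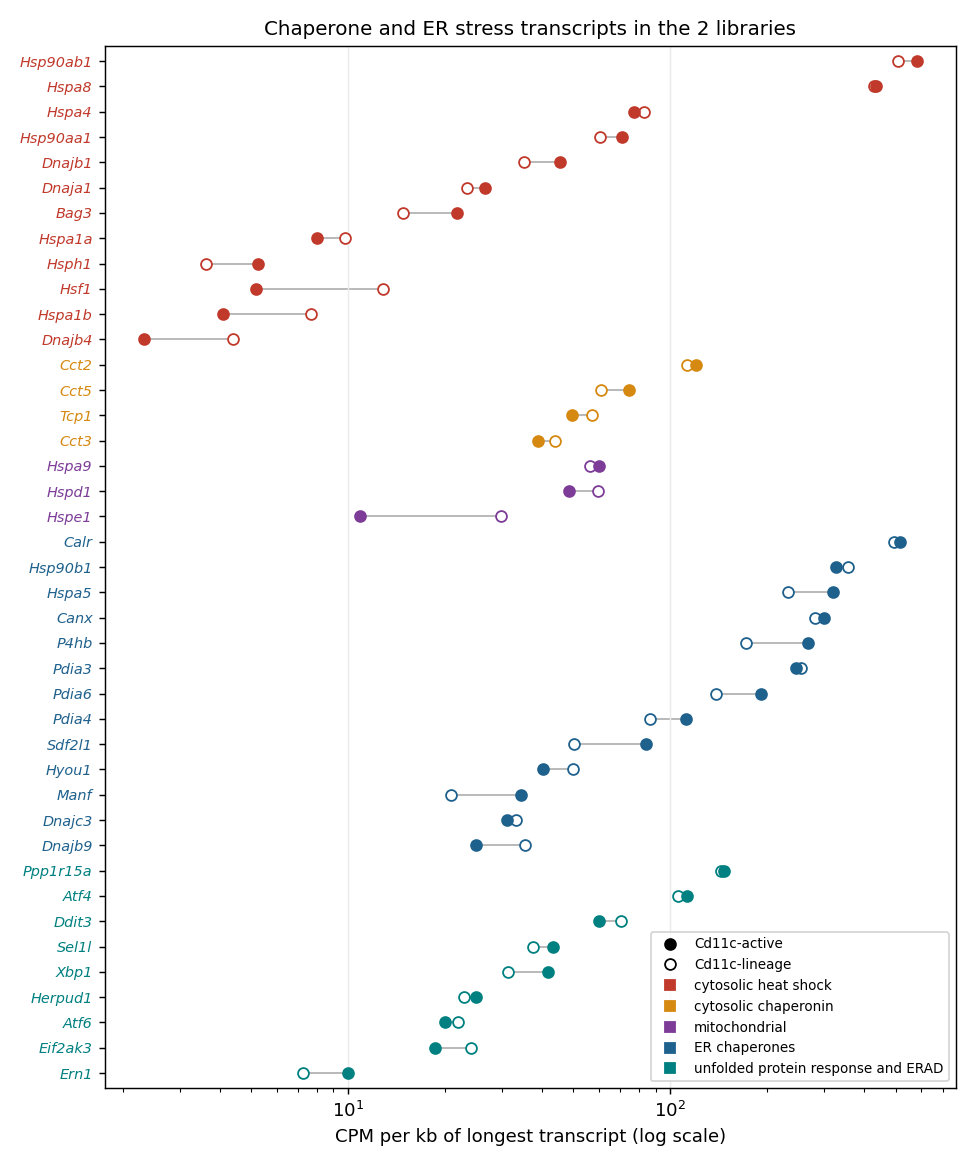
CPM per kilobase of the longest transcript (log scale) of each folding gene in Cd11c-active (filled) and Cd11c-lineage (open), ordered within the 5 classes by level in Cd11c-active. The genes *Hsp90ab1*, *Calr* and *Hspa8* exceed 400 CPM per kb in both libraries, and *Dnajb4*, *Hsph1*, *Hspa1a*, *Hspa1b* and *Ern1* lie below 10.

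Of the cytosolic heat shock class, 12 genes were measured, of which 7 were higher and 5 lower in Cd11c-active, with a median log2 ratio of 0.10 (6 and 6 over library totals). The regulator *Hsf1*, the transcription factor that starts the heat shock response, had 200 Cd11c-active reads and 564 Cd11c-lineage reads, at 16.2 and 40.1 CPM. Its log2 ratio was -1.31 (counting interval -1.55 to -1.07), a 2.47-fold lower level in Cd11c-active. Genes of its abundance ran from -2.01 to 2.75, so the difference lay within their spread.

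The inducible HSP70 genes *Hspa1a* and *Hspa1b*, the classic targets of HSF1, were both low. *Hspa1a* had 294 and 407 reads (23.8 and 29.0 CPM), a log2 ratio of -0.28 (counting interval -0.50 to -0.06). *Hspa1b* had 142 and 302 reads (11.5 and 21.5 CPM), a log2 ratio of -0.90 (-1.20 to -0.61). The copies are nearly identical in sequence, so the division of reads between them is uncertain. Summed, they had 436 and 709 reads, a log2 ratio of -0.51 (-0.69 to -0.34). The other inducible genes were split. *Bag3*, a co-chaperone that hands HSP70 clients to autophagy, had 690 and 533 reads and a log2 ratio of 0.56 (0.39 to 0.72). *Dnajb1*, the main inducible HSP40, had 1686 and 1482 reads and a log2 ratio of 0.37 (0.27 to 0.47). *Hsph1*, the HSP110 exchange factor of HSP70, had 308 and 243 reads and a log2 ratio of 0.53 (0.28 to 0.78). *Dnajb4*, another HSP40, was lower, with 141 and 304 reads and a log2 ratio of -0.92 (-1.22 to -0.63). All of these lay within the middle 95% of their abundance neighbours, whose range for *Hspa1b* and *Dnajb4* reached from -2.72 to 6.0.

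The remaining genes of this class were well measured, with log2 ratios from -0.09 to 0.22. *Hspa8* had 16891 and 18989 reads, or 1368 and 1351 CPM, a log2 ratio of 0.02 (-0.01 to 0.05). *Hsp90ab1* had 18099 and 17938 reads, or 1466 and 1277 CPM, a log2 ratio of 0.20 (0.17 to 0.23). *Hsp90aa1*, the HSP90 with a stress-inducible promoter, had 2861 and 2795 reads and a log2 ratio of 0.22 (0.14 to 0.30). With a trend of length and GC content removed the HSP90 pair was at 0.28 for *Hsp90aa1* and 0.09 for *Hsp90ab1*. *Hspa4*, an HSP110 family member, had 4410 and 5354 reads and a log2 ratio of -0.09, and *Dnaja1*, an HSP40 that works with HSC70, had 1842 and 1853 reads and a log2 ratio of 0.18. The dissociation and immediate early genes, 15 in number, were measured beside this class because such genes respond to cell isolation. Their summed level was 14808 CPM for Cd11c-active and 12364 for Cd11c-lineage, with a median log2 ratio of 0.24. Among them 1 gene, *Jund*, was past 2-fold, against 9.57% of all genes with at least 1000 reads. The part of isolation in the heat shock values was not tested.

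The cytosolic chaperonin is a ring complex that folds actin and tubulin. The sum of its 4 measured subunits was level under TMM scaling, with 2 subunits higher and 2 lower. *Cct2* had 2907 and 3092 reads (log2 ratio 0.10), *Cct5* 1705 and 1591 (0.29), *Cct3* 1604 and 2048 (-0.17), and *Tcp1* 2088 and 2736 (-0.20). Their summed level was 673 CPM for Cd11c-active and 674 CPM for Cd11c-lineage. Of the 9 other chaperonin and prefoldin subunits measured, 2 were past 2-fold higher and 1 lower, against 23.3% and 21.6% of all genes. The most abundant of these, *Cct8*, *Cct6a* and *Cct4*, had log2 ratios of -0.05, 0.22 and 0.22.

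Among the mitochondrial chaperones, *Hspe1* had the lowest log2 ratio of all members. It encodes HSP10, the lid of the HSP60 folding chamber, and *Hspd1* encodes HSP60 itself. *Hspe1* had 130 reads in Cd11c-active against 405 in Cd11c-lineage, or 10.5 and 28.8 CPM, a log2 ratio of -1.45 (counting interval -1.75 to -1.16) and thus a 2.73-fold lower level. Its abundance neighbours ran from -2.36 to 3.22. *Hspd1* had 1447 and 2030 reads, or 117 and 144 CPM, a log2 ratio of -0.30 (-0.40 to -0.20). The neighbours of *Hspd1* ran from -0.92 to 0.97, and each gene lay within its own range. The exons of the pair overlap on opposite strands in the annotation, and reads of both can be shared with processed pseudogene copies. *Hspa9*, the mitochondrial HSP70, had 2264 and 2405 reads and a log2 ratio of 0.10 (0.02 to 0.18). Of 12 other mitochondrial chaperones and proteases, 2 were past 2-fold higher and 2 lower, against 23.3% and 21.6% of all genes, and the 3 with the most reads, *Afg3l2*, *Spg7* and *Lonp1*, had log2 ratios of 0.37, 2.25 and 0.17. *Spg7*, a subunit of an inner membrane protease, had 843 and 202 reads and lay just within its neighbours, whose upper end was 2.28.

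*Hspd1* and *Hspe1* lie head to head and are read in opposite directions from a shared promoter. A stretch between their starts is shown because it holds heat shock elements, the sites named for HSF1, written here as GAANNTTCNNGAA or TTCNNGAANNTTC and searched on both strands. It is taken from the RefSeq promoter windows (GRCm38.p6, 250 bases before to 50 after each start) at chr1:55088039-55088096 on the plus strand, the strand of *Hspe1*, with the matched letters of 2 overlapping matches in capitals.
Hspe1: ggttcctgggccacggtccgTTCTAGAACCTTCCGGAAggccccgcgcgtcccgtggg
These elements were found in the windows of 3 of the 34 members that had one (*Hspd1*, *Hspe1* and *Hsph1*) and in 0.603% of all 32851 promoter windows. The 3 genes had log2 ratios of -0.30, -1.45 and 0.53, so the genes with this match differed in direction. A match is a description of letters and not of binding.

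The ER chaperones were the most abundant class, with 7352 CPM for Cd11c-active and 6595 for Cd11c-lineage, a log2 ratio of the sums of 0.16 (counting interval 0.14 to 0.17). All 13 were measured, with 8 higher and 5 lower and a median log2 ratio of 0.10 (6 and 7 over library totals). *Hspa5*, which encodes BiP, the HSP70 of the ER and the usual readout of the unfolded protein response, had 14448 reads in Cd11c-active against 11965 in Cd11c-lineage, or 1170 and 852 CPM. Its log2 ratio was 0.46 (0.42 to 0.49), at percentile 87.8 of its neighbours. *Hsp90b1*, which encodes GRP94, had 13006 and 16155 reads, or 1053 and 1150 CPM, a log2 ratio of -0.13 (-0.16 to -0.09). The main ER members of the HSP70 and HSP90 families therefore differed in opposite directions, both within the range of their neighbours.

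The lectin chaperones, which hold newly made glycoproteins, were level. *Calr* had 13919 and 15207 reads and a log2 ratio of 0.06, and *Canx*, encoding calnexin, had 15876 and 16896 reads and a log2 ratio of 0.10. Of the protein disulfide isomerases, which form and rearrange disulfide bonds, 3 of 4 were higher in Cd11c-active. *P4hb*, the founding member, had 9408 and 6917 reads, or 762 and 492 CPM, a log2 ratio of 0.63 (0.59 to 0.68). Its neighbours reached from -0.63 to 0.77. *Pdia6* had 5116 and 4223 reads and a log2 ratio of 0.46 (0.40 to 0.52), and *Pdia4* 3307 and 2905 reads and a log2 ratio of 0.37 (0.30 to 0.45). *Pdia3*, the isomerase that works with calnexin and calreticulin, differed from these with 8410 and 9895 reads and a log2 ratio of -0.05 (-0.09 to -0.01). Summed, the 4 isomerases stood at 2125 and 1704 CPM.

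The smaller ER stress targets pointed both ways. *Sdf2l1*, a BiP cochaperone, had 1153 and 783 reads, or 93.4 and 55.7 CPM, and the highest log2 ratio of the members, 0.74 (0.61 to 0.88). With a trend of length and GC content removed it was at 0.32, and *Hsph1* was then the highest at 0.63. *Manf*, a secreted ER stress protein that binds BiP, had 953 and 659 reads and a log2 ratio of 0.72 (0.57 to 0.86), though its exons overlap those of other genes. *Dnajb9*, an HSP40 of the ER known as a target of IRE1 signalling, had 756 and 1221 reads and a log2 ratio of -0.50 (-0.64 to -0.37). *Hyou1*, the ER relative of HSP110 that recharges BiP, had 2441 and 3450 reads and a log2 ratio of -0.31 (-0.39 to -0.24). *Dnajc3*, an ER HSP40 also called p58IPK, had 1981 and 2395 reads and a log2 ratio of -0.09 (-0.17 to -0.0008). With a trend of length and GC content removed, *Dnajc3* was at 0.09. The BiP partners were thus split, with *Sdf2l1* and *Manf* higher, *Dnajb9* and *Hyou1* lower, and *Dnajc3* of no stable direction.

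ER chaperone promoters are known for the ER stress response element, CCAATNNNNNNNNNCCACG, which binds ATF6 and NF-Y. Searched on both strands of the same windows, it was found in 6 of the 11 ER chaperones that had a window, in 0 of 23 other members and in 0.119% of all windows. The matches are shown with 20 bases either side, 5′ to 3′ on the strand of the gene and upstream of its start. The element is in capitals, and the stretches are shown because these genes carry the same letters. The positions in GRCm38.p6 are chr2:34772005-34772063 on the plus strand for *Hspa5*, chr12:17266471-17266529 on the plus strand for *Pdia6*, chr11:50325780-50325838 on the minus strand for *Canx*, chr8:84847055-84847113 on the minus strand for *Calr*, and chr14:118937807-118937865 on the plus strand for *Dnajc3*.
Hspa5: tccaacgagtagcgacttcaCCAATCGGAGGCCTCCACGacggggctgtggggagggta
Pdia6: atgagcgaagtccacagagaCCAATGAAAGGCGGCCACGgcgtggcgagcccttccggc
Canx: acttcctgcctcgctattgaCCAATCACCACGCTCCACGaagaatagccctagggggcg
Calr: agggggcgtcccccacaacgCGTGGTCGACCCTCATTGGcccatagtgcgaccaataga
Dnajc3: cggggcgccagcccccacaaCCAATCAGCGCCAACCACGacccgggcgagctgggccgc
In *Calr* the element is on the opposite strand and reads as its reverse complement. *Hsp90b1* held 2 matches, in the stretch chr10:86705513-86705676 on the minus strand.
Hsp90b1: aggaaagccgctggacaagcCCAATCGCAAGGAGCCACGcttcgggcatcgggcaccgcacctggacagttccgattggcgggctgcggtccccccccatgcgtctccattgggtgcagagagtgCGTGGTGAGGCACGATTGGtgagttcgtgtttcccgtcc
The log2 ratios of these 6 genes were 0.46 for *Hspa5*, 0.46 for *Pdia6*, 0.10 for *Canx*, 0.06 for *Calr*, -0.09 for *Dnajc3* and -0.13 for *Hsp90b1*, with 4 higher and 2 lower and a median of 0.08. Over library totals 2 were higher and 4 lower, as *Canx* and *Calr* changed sign. With a trend of length and GC content removed, 4 were higher and 2 lower, but *Calr* and *Dnajc3* had changed places. *Sdf2l1*, *P4hb* and *Pdia4*, which were higher by 0.74, 0.63 and 0.37, held no exact match in their windows. An exact search can miss elements that differ in a letter or lie outside the windows.

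The 7 regulators of the unfolded protein response had a log2 ratio of the summed reads of 0.02 (counting interval -0.01 to 0.06), with 4 higher and 3 lower. Over library totals 2 were higher and 5 lower. In the IRE1 arm, the sensor *Ern1* had 856 and 707 reads, or 69.3 and 50.3 CPM, a log2 ratio of 0.46 (0.32 to 0.61). Its substrate *Xbp1*, a transcription factor activated by splicing in the cytosol, had 1094 and 940 reads, or 88.6 and 66.9 CPM, a log2 ratio of 0.41 (0.28 to 0.53). Counts per gene do not separate spliced from unspliced *Xbp1*. Both genes of this arm were higher in Cd11c-active, at percentiles 76.4 and 76.6 of their neighbours.

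In the PERK arm *Eif2ak3* and *Ddit3* were lower under TMM scaling, and *Atf4* and *Ppp1r15a* changed sign with the processing. *Eif2ak3*, which encodes PERK, had 1039 and 1529 reads and a log2 ratio of -0.37 (-0.49 to -0.26). *Atf4*, the transcription factor whose translation PERK promotes, had 2810 and 2998 reads and a log2 ratio of 0.09 (0.02 to 0.17). *Ddit3*, which encodes the factor CHOP, had 719 and 960 reads and a log2 ratio of -0.23 (-0.37 to -0.09). *Ppp1r15a*, which encodes GADD34 and ends the block of translation, was abundant with 5104 and 5661 reads, or 413 and 403 CPM, and a log2 ratio of 0.04 (-0.02 to 0.09). Over library totals *Atf4* was at -0.043 and *Ppp1r15a* at -0.099, and with the trend of length and GC content removed they were at -0.16 and -0.16, so that all 4 genes of this arm were then lower. Summed, the 4 genes stood at 783 and 793 CPM. The ATF6 arm was represented by *Atf6*, with 1791 and 2227 reads and a log2 ratio of -0.13 (-0.22 to -0.04). It too changed sign, to 0.075, with the trend of length and GC content removed.

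Summed, the 2 members of ER-associated degradation, which takes misfolded protein out of the ER, had a log2 ratio of 0.20 (counting interval 0.13 to 0.26). *Sel1l*, the adaptor of its main ubiquitin ligase, had 3365 and 3305 reads and a log2 ratio of 0.21 (0.14 to 0.28). *Herpud1*, a stress-induced scaffold of that complex, had 602 and 628 reads and a log2 ratio of 0.13 (-0.04 to 0.29). The *Herpud1* window held the second form of the ER stress response element, ATTGGNCCACG, which occurred in 0.0365% of all windows and in 1 of the 34 members. It is shown in capitals because no other member held it, at chr8:94386357-94386407 on the plus strand.
Herpud1: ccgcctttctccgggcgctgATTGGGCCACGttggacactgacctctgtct
The windows were also searched for TTGCATCA, a half-site pair bound by C/EBP and ATF factors, which was found in *Herpud1* and in 0.895% of all windows, and for TGACGTCA, the cyclic AMP response element, which was found in *Ppp1r15a* and in 1.79% of all windows.

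The other genes of these pathways, 133 on 6 lists, were measured beside the set. Of the 125 found with at least 20 reads, 18 were past 2-fold higher and 12 past 2-fold lower in Cd11c-active, against the 23.3% and 21.6% of all genes given above, with a median log2 ratio of 0.01. The 18 genes of ER-associated degradation beyond the set held 0 past 2-fold in either direction. Most of them had at least 1000 reads, where 9.57% of all genes were past 2-fold, against 36.3% at 400 to 999 reads. The counts of the lists here and below were not set against genes of like depth. Their most abundant members were *Vcp*, the ATPase that pulls proteins from the ER membrane, with 10307 and 10446 reads (log2 ratio 0.17), *Edem1*, a mannosidase-like factor, with 4994 and 7603 (-0.42), and the lectin *Os9* with 5253 and 6172 (-0.05). Of 27 other ER folding genes 8 were higher and 1 lower past 2-fold, with a median log2 ratio of 0.20, and the most abundant, *Erp29*, *Uggt1* and *Sec61a1*, had log2 ratios of 0.07, 0.08 and 0.00. Of 24 other unfolded protein and integrated stress response genes 1 was higher and 3 lower past 2-fold. *Atf3*, a target of ATF4, was the most abundant with 5859 and 6587 reads and a log2 ratio of 0.02. *Ppp1r15b*, the constitutive relative of GADD34, had a log2 ratio of -0.32, and *Psat1*, a serine synthesis enzyme under ATF4, one of -0.26.

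Of 35 other cytosolic chaperones and cochaperones, 5 were past 2-fold higher and 5 lower, against 23.3% and 21.6% of all genes with at least 20 reads. *St13*, *Bag6* and *Cdc37*, the most abundant, had log2 ratios of -0.02, 0.27 and 0.55. *Ptges3*, which encodes the HSP90 cochaperone p23, was the gene of the pathway lists with at least 1000 reads that lay outside its neighbours. It had 2061 Cd11c-active reads and 992 Cd11c-lineage reads, or 167 and 70.6 CPM, a log2 ratio of 1.24 (counting interval 1.13 to 1.35). Its neighbours ran from -0.97 to 1.0.

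The members' ratios moved with the base composition of their transcripts. Over the 35 members with at least 1000 reads the Pearson correlation of the log2 ratio with the GC content of the longest transcript was 0.50, and with the log2 of its length -0.21. These are descriptions across genes of the same 2 libraries. Before the trend given below was removed, *Sdf2l1* had the highest ratio of the members, with a transcript of 1108 bases and 56.7% GC. *Dnajb9*, at that setting the lowest of the 35, had a transcript with 40.6% GC. Over all genes at this depth the correlations were 0.19 with GC content and -0.19 with length. When this trend over all genes was removed, the log2 ratio of *Sdf2l1* was 0.32 in place of 0.74, and that of *Xbp1* was 0.22 in place of 0.41. *Ddit3* was then at -0.57 in place of -0.23, *Hspa1a* at -0.56 in place of -0.28, *Dnaja1* at 0.40 in place of 0.18, and *Bag3* at 0.34 in place of 0.56. *Cct5* was then at 0.12, *Hsp90ab1* at 0.09, *Canx* at 0.24, *Sel1l* at 0.36, *Tcp1* at -0.11, *Hsp90b1* at -0.06 and *Hspa8* at 0.04, each over 1.5 times from its value above. *P4hb* was then at 0.49, *Manf* at 0.58, *Hspa5* at 0.53, *Ern1* at 0.55 and *Dnajb9* at -0.51. *Hspe1* was then at -1.79, *Hsf1* at -1.42 and *Hspa1b* at -1.16.

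**Figure D4:**
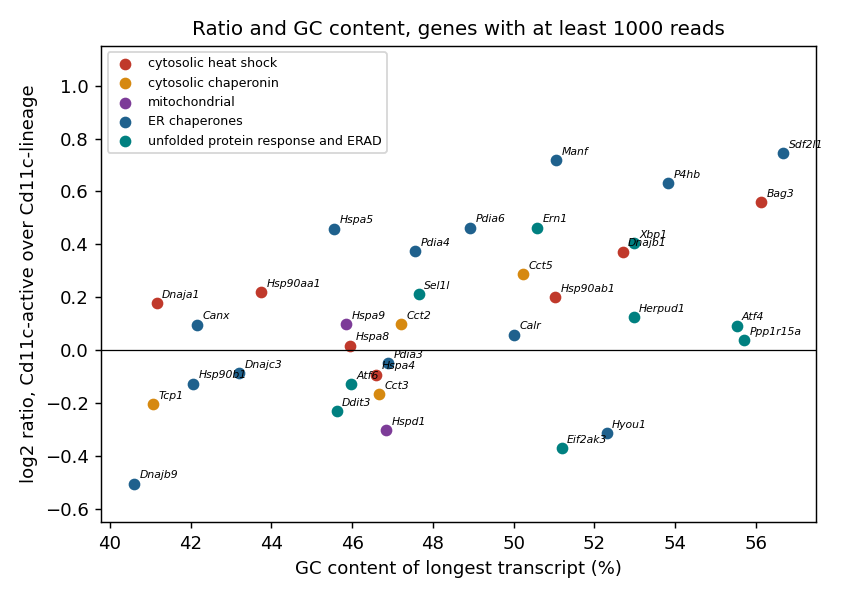
Log2 ratio between the libraries (vertical axis) against the GC content in percent of the longest transcript (horizontal axis) for the 35 folding genes with at least 1000 reads, coloured by class. Genes above 50% GC are mostly higher in Cd11c-active, with *Hyou1* and *Eif2ak3* as exceptions, and the Pearson correlation is 0.50.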

How the data were processed

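RNA was sequenced from 2 sorted microglial populations, 1 library each, after ribosomal RNA depletion and stranded library preparation, per the labels' protocols. The authors deposited raw counts per gene, whole numbers without normalization. The submitters' processing notes name cutadapt 3.5, STAR 2.7.9a, featureCounts 1.6.3, edgeR 4.0.16 and the build GRCm39. Which annotation was used, whether counting used strand, and how duplicates were treated are not given in the sources used here. Beside the counts stand the authors' log2 fold change and mean log2 CPM, named as such per the file headers. That fold change matches the ratio over library totals. No listed gene had fewer than 6 reads in all.

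Counts were scaled with TMM (edgeR 4.0.16 in R 4.3.3; factors 0.954 and 1.05). The log2 ratio took reads plus 0.5 over effective library size. Genes with at least 20 reads were counted, and log2 ratios of 1 or more in either direction were called past 2-fold. With 1 library per group 0 residual degrees of freedom remain, so edgeR's and DESeq2's tests could not be fitted. A gene at 0 may have had up to 3 reads, which is 0.243 CPM in the first library and 0.214 in the second. Limits and intervals cover counting error only, because PCR copies of a molecule could not be recognised without molecular identifiers. Lengths and GC content came from GENCODE M21 (GRCm38), which matched 99.6% of genes and all 41 members; promoter windows came from RefSeq (GRCm38.p6), where 34 members matched. Neither was joined by coordinates to the counts, which use GRCm39. All members are named. Genes of the pathway lists are named where they have at least 1000 reads and lie outside their neighbours, and otherwise the 3 with the most reads. Marker and immediate early genes are mostly given as sums, without this rule. *Ccr2*, *Rbpms*, the Muller glia markers, *Jund*, *Spg7* and the genes of the closing observations are described further, a choice made after their values were seen. Members and lists were chosen with earlier results of these data known. Scripts used scipy 1.17.1, numpy 2.4.6, pandas 2.3.3 and matplotlib 3.10.9 under Python 3.11.15 and were tested on simulated data. Alternatives were library totals, DESeq2 1.42.0 size factors, scaling without ribosomal and mitochondrial genes, other read minimums, a larger prior, and removal of the trend with length and GC content.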

Additional observations from a re-analysis of the deposited data

How the results depend on the processing

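Under library totals every log2 ratio is lower by 0.14 than under TMM, and the median over all genes with at least 20 reads is -0.13. Members past 2-fold lower then numbered 4 in place of 2, with *Hspa1b* (-1.04) and *Dnajb4* (-1.06) added, while the share of all genes past it rose from 21.6% to 23.6%. The authors' deposited table gives the same log2 fold changes for both, -1.04 and -1.06. The class medians were then -0.039 for cytosolic heat shock, -0.17 for the chaperonin, -0.44 for the mitochondrial chaperones, -0.040 for the ER chaperones and -0.043 for the unfolded protein response, and the ratios of the summed reads were -0.044, -0.14, -0.28, 0.020 and -0.075. These shifts follow from the scaling itself, and 8 members (*Atf4*, *Calr*, *Canx*, *Cct2*, *Herpud1*, *Hspa8*, *Hspa9* and *Ppp1r15a*) changed sign. The library totals include *Rn18s*, which took 8.57% of Cd11c-active and 2.84% of Cd11c-lineage reads, and its part in the shifts was not tested. With the trend of length and GC content removed, the medians were 0.067 for cytosolic heat shock, 0.24 for the ER chaperones and -0.079 for the unfolded protein response, whose summed reads gave -0.016. Members past 2-fold lower then numbered 3, with *Hspa1b* added, against 22.1% of the 12992 genes with a length, and 8 members changed sign (*Atf4*, *Atf6*, *Calr*, *Cct2*, *Dnajc3*, *Herpud1*, *Hspa4* and *Ppp1r15a*); the cause was not tested. Under size factors, scaling without ribosomal, mitochondrial and 7S genes, no minimum of reads, a minimum of 200 reads and a prior of 5 reads, 0 members changed sign or their side of 2-fold. The number past 2-fold higher was 0 under every alternative run. Among the members depth limits *Hspa1b*, *Dnajb4*, *Hspe1*, *Hsph1*, *Hspa1a* and *Hsf1* most, which had under 1000 reads. No paired analysis was possible because each group has 1 library, and leaving out a library leaves no comparison.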

Other observations

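Of the 125 other pathway genes, 6 lay outside the middle 95% of their abundance neighbours, against 3.82% of all genes with at least 20 reads. Of these, 4 were higher and 2 lower in Cd11c-active. *Ptges3* is described above, and the other 5, which had under 1000 reads, are named here after their values were seen. *Serpinh1*, which encodes the collagen chaperone HSP47, had 994 Cd11c-active reads and 0 Cd11c-lineage reads, at least 377-fold higher when the 0 is set to 3 reads. *Hspa12b*, an HSP70 relative known from endothelial cells, had 279 and 0 reads, at least 106-fold higher on the same floor. *Txndc11*, a thioredoxin domain protein of the ER, had 418 and 13 reads, a log2 ratio of 5.14. On the lower side *Hspa2*, an HSP70 best known from the testis, had 76 and 542 reads, a log2 ratio of -2.64, and *Cnpy4*, a canopy family gene, had 36 and 625 reads, a log2 ratio of -3.91.

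The 8 endothelial markers had 7974 and 1035 summed reads and the 5 pericyte markers 775 and 0, in the direction of *Serpinh1* and *Hspa12b*. In the direction of *Hspa2* and *Cnpy4* were the sums of other marker lists. The 4 border macrophage markers had 262 and 1794 summed reads, and the 10 retinal neuron and photoreceptor markers 1729 and 3016. The 4 monocyte and neutrophil markers had 35 and 239. Not each gene followed its sum, as *Ccr2* had 35 and 0 reads and *Rbpms* 325 and 126. The Muller glia markers were split, with *Slc1a3* at 73 and 642 reads, *Glul* at 27773 and 33293, and *Rlbp1* at 94 and 0. The part of such admixture in these results was not tested.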
